A study of Arabidopsis thaliana and Cardamine hirsuta and Capsella rubella with 102 samples.

Results

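Cysteine-rich receptor-like kinases (CRKs) were followed through the flg22 response of *Arabidopsis thaliana* seedlings and, where 1:1 orthologs were listed, of 3 other Brassicaceae. The family was taken as 41 genes by their AGI identifiers, of 27416 genes in the *A. thaliana* count tables. In *Capsella rubella*, *Cardamine hirsuta*, and *Eutrema salsugineum*, only the 17 members with an ortholog in the study's supplemental lists were followed, and 24 members had none listed. RNA came from whole seedlings 12 days old treated with mock or 1 µM flg22, a peptide of bacterial flagellin. Col-0 and the 3 other species were sampled at 1, 9, and 24 h (72 libraries), and 5 further accessions of *A. thaliana* (Kon, Can-0, No-0, Gy-0, and Kn-0) at 1 h (30 libraries). Every genotype is a wild type (*C. hirsuta* is the Oxford strain and *E. salsugineum* the Shandong ecotype), and no group carried a mutation or a transgene. Each group had 3 replicates from 3 independent experiments in which mock and flg22 were applied side by side. Several wells of seedlings were pooled for each sample, so a replicate is a pool and not a plant.

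Typical CRKs are plasma membrane kinases with an extracellular pair of cysteine-rich DUF26 domains, a transmembrane segment, and a cytoplasmic Ser/Thr kinase domain. CRK9 (265 codons before the stop) and CRK45 (354) have shorter coding regions than all other members, and which of these domains they hold was not examined. flg22 is perceived by the receptor kinase FLS2 with its coreceptor BAK1, which act through the cytoplasmic kinase BIK1 on the NADPH oxidase RBOHD and on a MAP kinase cascade. CRKs have been connected with reactive oxygen signaling, cell death, and immunity in *A. thaliana*, and several of them act close to these components.

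All but CRK2, CRK3, CRK4, and CRK42 lie on chromosome 4. In the TAIR10.1 assembly with RefSeq annotation, 20 members (CRK5 to CRK24) form 1 tandem array at chr4:12117491-12191704, with 9 genes on the plus and 11 on the minus strand. Smaller arrays hold CRK30 to CRK34 (5 genes, chr4:6963521-6989793, all on the plus strand) and CRK36 to CRK40 (5 genes, chr4:2231717-2292965). CRK28 and CRK29 are adjacent, as are CRK2 and CRK3 on chromosome 1, and the other 7 members stand alone. Because array members are alike in sequence, every exonic window of 100 bases was searched in the whole genome. A second exact copy existed for 11.9% of the windows of CRK22, 11% of those of CRK6, 10.7% of those of CRK13, and 9.96% of those of CRK8, and for at most 1.8% in every other member. CRK13 and CRK22 shared 228 windows with each other, and CRK6 and CRK8 shared 210. A read of 100 bases from such a window aligns to more than 1 place and was not counted. CRK16 and CRK17 (EMB1290, named for an embryo-defective mutant) overlap by 1190 bases on the same strand, and CRK28 and CRK29 by 470 bases. These overlaps are of whole gene spans, introns included, and the overlap of exons in the models used for counting was not measured. Reads that fell on exons of both genes were not counted for either.

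At 1 h after flg22 most of the family was induced in Col-0. Of 41 members, 38 averaged 10 or more counts over the libraries and were tested, 25 rose, 1 fell, and 12 did not pass the test (adjusted *P* below 0.01 and an absolute log2 fold change above 1). Over all 20295 genes tested, 11.9% passed the test, 9.64% rising and 2.3% falling. The median log2 fold change was 2.66 over the tested members and −0.09 over all genes. CRK23, CRK33, and CRK37 stayed below the filter. In these whole-seedling samples, fewer cells of a type and less RNA per cell cannot be told apart.

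Summed over the 41 members, the mock libraries at 1 h held 388, 355, and 418 CPM (counts scaled to library size with the TMM factors of edgeR) and the flg22 libraries 2114, 1496, and 1995 CPM. The groups did not overlap, and the ratio of the means was 4.83. The sums in the mock libraries averaged 583 CPM at 9 h and 470 CPM at 24 h, against 1146 and 1232 CPM with flg22, ratios of 1.97 and 2.62. A few members carried much of the total. In flg22 libraries at 1 h, CRK29, CRK11, CRK19, and CRK10 together made up 49% of the family's CPM. Per kilobase of exon, CRK29 had the highest level in mock libraries at 1 h (26.1 CPM per kb) and also in flg22 libraries (110 CPM per kb), where CRK11 followed with 97.3 and CRK19 with 81.6 CPM per kb.

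**Figure D1:**
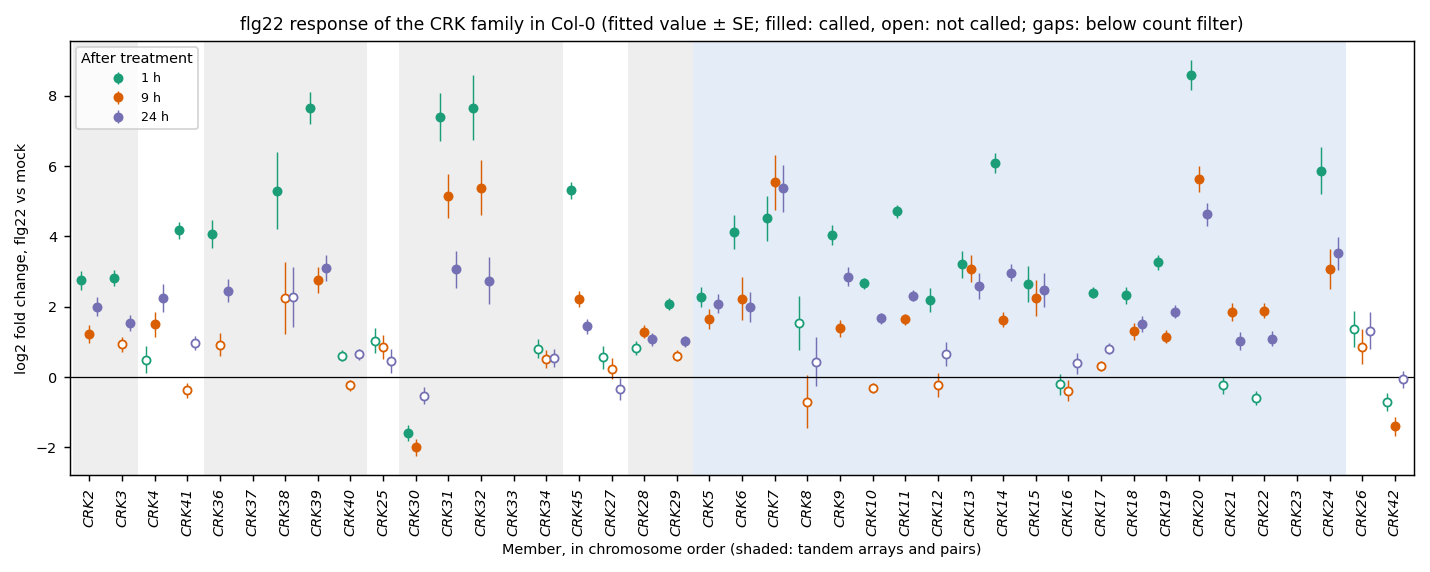
Log2 fold change (flg22 vs mock) of the 41 members in Col-0 at 1 h (green), 9 h (orange), and 24 h (purple), fitted value with its standard error, filled where called, in chromosome order, with arrays and pairs shaded and the array of CRK5 to CRK24 in blue. At 1 h, 25 members rose and CRK30 fell, and the largest value was 8.59 for CRK20.

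The largest change belonged to CRK20 (AT4G23280), whose inducible expression is known to trigger cell death resembling the hypersensitive response. CRK20 held 0.271, 0.122, and 0 CPM in the mock libraries and 60.1, 41.7, and 46.0 CPM in the flg22 libraries, so it was nearly silent without flg22 and clearly present with it. Its log2 fold change was 8.59 ± 0.42 (SE, n = 3 pairs, edgeR adjusted *P* = 9.65e-11), rank 15 of all 20295 genes. CRK39 (AT4G04540) went from 0.271, 0, and 0.248 CPM to 46.3, 22.8, and 41.2 CPM, a log2 fold change of 7.66 ± 0.46. CRK14 (AT4G23220) went from 0.774, 0.61, and 0.531 CPM to 47.4, 33.3, and 51.3 CPM (6.09 ± 0.27). For each of these genes, chosen by their change, the lowest flg22 library lay far above the highest mock library.

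CRK31 and CRK32, neighbors in the array of CRK30 to CRK34, were also close to absent in mock. CRK31 (AT4G11470) had 0, 0, and 0.177 CPM in mock and 11.7, 10.1, and 12.0 CPM with flg22, a log2 fold change of 7.42 ± 0.68. CRK32 had 0, 0, and 0.0354 CPM in mock and 2.96, 1.81, and 5.39 CPM with flg22. Only 1 count of CRK32 fell in the 3 mock libraries together, so the ratio was 273 with a 95% counting interval from 48.7 to 10834. The fitted log2 fold change of 7.67 ± 0.93 depends on the prior count. CRK38 likewise had 2 counts in mock (0.0774, 0, and 0 CPM) against 1.61, 1.08, and 0.816 CPM with flg22, a ratio of 46.7 (95% counting interval 12.6 to 391). These intervals are exact and cover counting error only. CRK24, at the end of the large array, went from 0.155, 0, and 0 CPM to 2.70, 4.83, and 2.45 CPM (5.88 ± 0.67).

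Members with a clear level in mock rose as well. CRK45 (ARCK1, AT4G11890), which acts with CRK36 in abscisic acid and osmotic stress responses, went from 2.17, 0.935, and 1.42 CPM to 57.1, 56.2, and 65.2 CPM (5.31 ± 0.25). CRK11 (AT4G23190) had 11, 8.33, and 8.57 CPM in mock and 287, 191, and 260 CPM with flg22, the second-highest level of the family (4.71 ± 0.18, adjusted *P* = 1.25e-11). CRK41 (AT4G00970) went from 1.63, 2.64, and 2.69 CPM to 43.8, 33, and 49.1 CPM (4.17 ± 0.23). Mock and flg22 libraries of these 3 genes, which were chosen by their change, were separated without overlap.

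CRK6 and CRK7, which are known to protect plants against extracellular reactive oxygen, were weakly expressed in mock. CRK7 went from 0.155, 0.366, and 0 CPM to 3.59, 5.65, and 2.52 CPM (4.52 ± 0.64). CRK6, for which 11% of windows have a second copy, went from 0.465, 0.325, and 0.142 CPM to 6.29, 6.08, and 4.04 CPM (4.14 ± 0.48). Both rose in all 3 pairs.

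The other 13 members that rose at 1 h had log2 fold changes between 2.07 (CRK29) and 4.07 (CRK36). They include CRK36 (4.07 ± 0.39), which binds BIK1, and CRK9 (4.04 ± 0.27), whose coding region is the shortest of the family with 265 codons before the stop. CRK19 (3.26 ± 0.21) and CRK5 (2.29 ± 0.28) are, like CRK20, genes whose forced expression causes cell death, and CRK13 (3.2 ± 0.40) is known for resistance to *Pseudomonas* when overexpressed. CRK2 (2.75 ± 0.27) phosphorylates RBOHD, and its neighbor CRK3 changed by a like amount (2.81 ± 0.23). The rest were CRK10 (2.67), CRK15 (2.64), CRK17 (2.40), CRK18 (2.33), CRK12 (2.19), and CRK29 (2.07). The call of CRK15 was lost without replicate 1 (adjusted *P* = 0.030), and CRK38 and CRK15 were not called without replicate 3, where their adjusted *P*-values were 0.015 and 0.018.

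**Figure D2:**
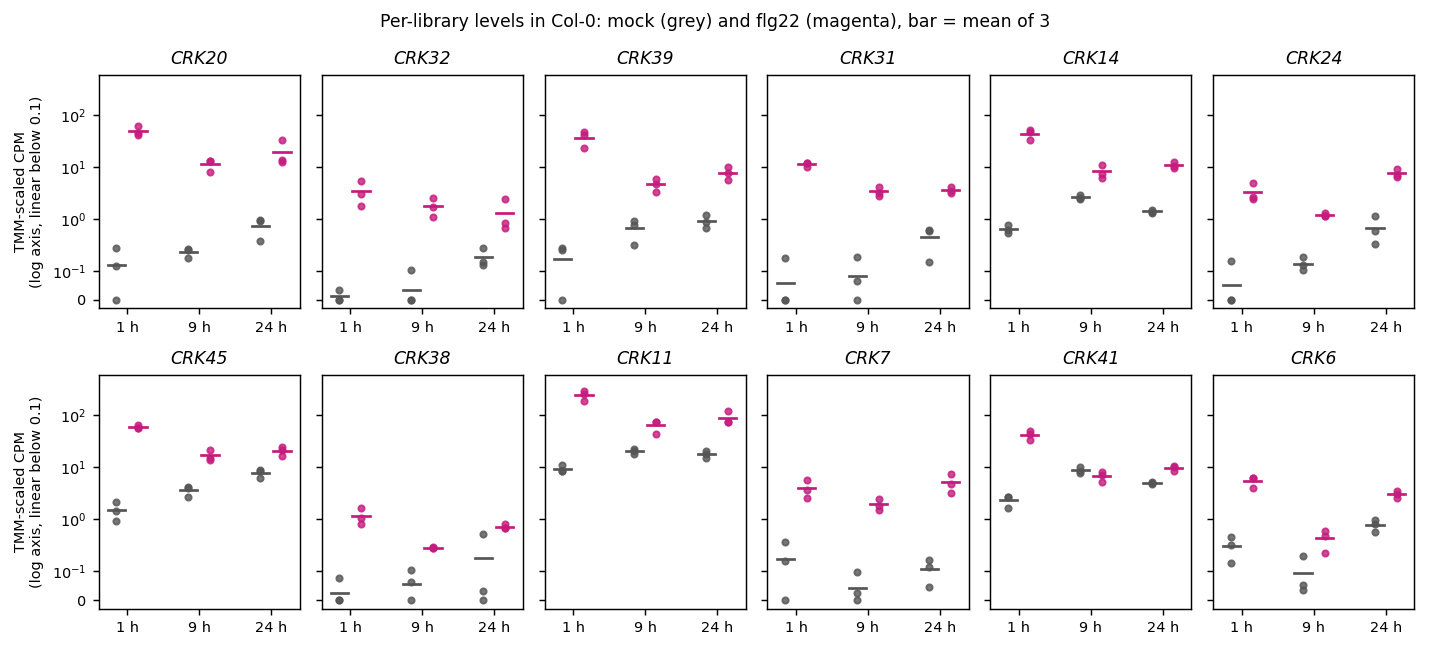
TMM-scaled CPM in each Col-0 library of the 12 called members with the largest absolute log2 fold change at 1 h, for mock (grey) and flg22 (magenta) at 1, 9, and 24 h, with bars at the mean of 3 libraries and a log axis that is linear below 0.1. At 1 h the groups are separated in every panel, which the choice of members by their change at 1 h favors. For CRK41 at 9 h, the mock libraries (7.72 to 9.94 CPM) and the flg22 libraries (5.17 to 8.01 CPM) overlap.

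CRK30 (AT4G11460) was the only member to fall at 1 h. Its mock libraries held 25.6, 30.2, and 31.8 CPM and its flg22 libraries 8.86, 10, and 10.2 CPM, a log2 fold change of −1.59 ± 0.23 (adjusted *P* = 4.30e-05). Per kilobase it was among the most abundant members in mock (11.8 CPM per kb), and it stands next to CRK31 and CRK32. The 12 members that did not pass the test at 1 h had log2 fold changes from −0.70 (CRK42) to 1.55 (CRK8). Among them were CRK28 (0.82 ± 0.19), which associates with BAK1, CRK4 (0.49 ± 0.38), CRK21 (−0.23 ± 0.25), and CRK22 (−0.59 ± 0.21), as well as CRK16, CRK25, CRK26, CRK27, CRK34, and CRK40. By position, 15 of the 20 members of the large array rose at 1 h, 3 of the 5 in the array of CRK36 to CRK40, 2 of the 5 in that of CRK30 to CRK34, both of CRK2 and CRK3, and CRK29 of its pair.

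Other genes of the flg22 pathway were compared as a list. Of 12 signaling genes (FLS2, BAK1, BIK1, SOBIR1, CERK1, RBOHD, RBOHF, MKK4, MKK5, MPK3, MPK6, and FRK1), 10 rose in Col-0 at 1 h, 6 at 24 h, and 4 at 9 h, and none fell. Their median log2 fold change at 1 h was 2.24, with a range from 0.15 (MPK6) to 5.75 (FRK1, a common marker of flg22 responses). The plasmodesmata-located proteins PDLP1 to PDLP8 carry DUF26 domains without a kinase. Of the 8 genes, only PDLP5 rose at 1 h (1.32 ± 0.23), and the median was 0.09. At 9 h PDLP1 rose (1.42 ± 0.37), and PDLP2 (−1.63 ± 0.22) and PDLP3 (−1.10 ± 0.15) fell.

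Organ markers were measured in the same libraries. Summed CPM of the 6 shoot markers in Col-0 at 1 h ranged from 32456 to 38370 in mock and from 25578 to 31294 with flg22, so the flg22 libraries were lower without overlap, although none of the 6 passed the test. The 8 root markers summed to 1844 to 2189 CPM in mock and 1747 to 2537 CPM with flg22 at 1 h, and none passed the test. At 9 h the shoot markers summed to 14054 to 16441 CPM in mock and 9961 to 13321 CPM with flg22, and the root markers to 2674 to 2928 CPM in mock and 1496 to 1906 CPM with flg22, and 3 of the 8 fell. At 24 h the root markers summed to 2102 to 2604 CPM in mock and 1144 to 1781 CPM with flg22, and COBL9, expressed in root hairs, fell (−2.08 ± 0.40), whereas the shoot markers overlapped (17348 to 23236 and 16352 to 21374 CPM). In the accessions, 1 root marker rose in Kon and 1 in No-0, and 1 shoot marker fell in Can-0. No marker was at 0 in all libraries. Their part in the changes of the CRKs was not tested.

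The DNA upstream of the members was searched for the W-box core bound by WRKY transcription factors, as TTGACC or TTGACT on either strand, in a window from 250 bases before to 50 bases after the annotated gene start. It occurred in 26 of the 41 windows (63.4%) and in 32.4% of the 27443 nuclear protein-coding genes of the annotation. At least 2 matches were present in 11 members (26.8%) and in 7.70% of all genes. The median log2 fold change at 1 h in Col-0 was 3.34 over the 24 tested members with a match, of which 17 rose, and 2.43 over the 14 tested members without a match, of which 8 rose. At 9 h, 13 of the 24 with a match rose (median 1.44) and 8 of the 14 without (median 1.19). At 24 h, 15 of the 24 with a match rose (median 2.17) and 10 of the 14 without (median 1.38). The members with and without a match were not compared by a test. A match describes the letters of the window and is not a binding site. The 250 bases before the gene start (TAIR10.1, RefSeq) are shown, 5′ to 3′ on the gene's strand, for the member with the most matches (CRK11), for 2 of the most induced (CRK20 and CRK14), for the one that fell (CRK30), and for the divergent neighbors called only later (CRK21 and CRK22). Capitals mark the matches.
CRK11, chr4:12143859-12144108, minus strand: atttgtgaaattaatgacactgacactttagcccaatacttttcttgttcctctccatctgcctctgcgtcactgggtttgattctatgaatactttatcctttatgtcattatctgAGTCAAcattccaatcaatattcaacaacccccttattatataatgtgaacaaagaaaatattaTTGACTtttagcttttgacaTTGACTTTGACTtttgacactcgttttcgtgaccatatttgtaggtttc
CRK20, chr4:12174483-12174732, plus strand: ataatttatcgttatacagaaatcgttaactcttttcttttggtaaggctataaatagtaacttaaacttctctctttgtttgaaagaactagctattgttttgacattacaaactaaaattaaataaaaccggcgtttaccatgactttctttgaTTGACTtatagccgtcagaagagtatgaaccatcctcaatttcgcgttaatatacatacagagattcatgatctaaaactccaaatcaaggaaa
CRK14, chr4:12156882-12157131, minus strand: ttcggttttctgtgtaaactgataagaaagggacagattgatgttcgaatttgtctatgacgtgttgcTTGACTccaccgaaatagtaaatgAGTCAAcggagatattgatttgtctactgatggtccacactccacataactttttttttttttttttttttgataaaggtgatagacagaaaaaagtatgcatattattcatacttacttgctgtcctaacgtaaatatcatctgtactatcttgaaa
CRK30, chr4:6963271-6963520, plus strand: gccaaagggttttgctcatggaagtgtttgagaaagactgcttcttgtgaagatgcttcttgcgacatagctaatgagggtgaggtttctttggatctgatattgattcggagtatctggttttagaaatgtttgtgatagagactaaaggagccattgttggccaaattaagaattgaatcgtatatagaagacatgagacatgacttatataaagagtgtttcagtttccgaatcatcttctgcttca
CRK21, chr4:12180937-12181186, minus strand: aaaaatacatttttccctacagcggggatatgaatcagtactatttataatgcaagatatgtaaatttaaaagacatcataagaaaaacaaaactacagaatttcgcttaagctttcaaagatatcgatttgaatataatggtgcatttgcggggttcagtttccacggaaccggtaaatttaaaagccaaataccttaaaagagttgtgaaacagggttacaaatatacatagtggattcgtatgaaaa
CRK22, chr4:12181375-12181624, plus strand: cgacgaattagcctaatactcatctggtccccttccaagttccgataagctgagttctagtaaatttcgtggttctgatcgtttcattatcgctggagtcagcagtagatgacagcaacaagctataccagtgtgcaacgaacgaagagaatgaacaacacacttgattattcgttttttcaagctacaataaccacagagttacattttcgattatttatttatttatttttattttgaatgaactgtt
CRK11 had 4 matches, of which 2 adjoin in the run TTGACTTTGACT, CRK14 had 2, and CRK20 had 1. CRK30, CRK21, and CRK22 had none in the window, and neither had CRK2, CRK3, CRK7, CRK10, CRK12, CRK13, CRK19, and CRK45, which rose at 1 h.

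Many members were also higher with flg22 at 9 and 24 h. At 9 h, 21 members rose and 2 fell, against 6.51% and 4.55% of all genes. At 24 h, 25 rose and none fell, against 6.06% and 1.17% of all genes. In either direction 11.1% of all genes were called at 9 h and 7.23% at 24 h. The median log2 fold change over the tested members was 1.30 at 9 h and 1.61 at 24 h, and over all genes −0.02 and −0.03. With replicate 1 left out, 15 members were called at 9 h and 15 at 24 h, the lost calls including CRK2, CRK9, CRK18, and CRK19 at 9 h and CRK13, CRK29, CRK31, and CRK32 at 24 h.

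Of the 29 members that rose at any time point, 17 rose at all 3. They were CRK2, CRK5, CRK6, CRK7, CRK9, CRK11, CRK13, CRK14, CRK15, CRK18, CRK19, CRK20, CRK24, CRK31, CRK32, CRK39, and CRK45, of which 12 belong to the large array. The share of all genes that rose at all 3 time points was not counted. Several of these calls were lost when 1 replicate was left out. CRK6 and CRK15 were not called at 9 or 24 h without replicate 1 or 3. CRK32 was not called at 24 h whichever replicate was left out, and CRK2, CRK5, and CRK24 not at 9 h without replicate 3. CRK20 remained the most induced at 9 h (5.64 ± 0.38) and stood at 4.63 ± 0.33 at 24 h. CRK7 had log2 fold changes of 4.52 ± 0.64 at 1 h, 5.54 ± 0.78 at 9 h, and 5.38 ± 0.67 at 24 h, when it was the most induced member. CRK13 had 3.2, 3.09, and 2.59. Its flg22 libraries held 92.2, 45.4, and 86.8 CPM at 9 h, against 12.2, 8.40, and 5.11 CPM in mock.

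The members called at 1 and 24 h but not at 9 h were CRK3, CRK10, CRK29, and CRK36. CRK10 (AT4G23180) went from a range of 17.6 to 19.6 CPM in mock to 119, 96.8, and 139 CPM with flg22 at 1 h. At 9 h its mock libraries held 40.0, 43.1, and 41.9 CPM and its flg22 libraries 32.4, 31, and 37.9 CPM. At 24 h it was again higher with flg22, at 38.0, 51.5, and 47.7 CPM against 12.4, 12.6, and 18.3 CPM. The log2 fold changes were 2.67 ± 0.16, −0.31 ± 0.15, and 1.68 ± 0.15.

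CRK12, CRK17, CRK38, and CRK41 were called at 1 h only. CRK41 held 1.63 to 2.69 CPM in mock at 1 h and 7.72 to 9.94 CPM in mock at 9 h. Its flg22 libraries held 33 to 49.1 CPM at 1 h and 5.17 to 8.01 CPM at 9 h, where the groups overlapped (−0.38 ± 0.21).

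CRK4, CRK21, CRK22, and CRK28 were called at 9 and 24 h but not at 1 h. The interaction test given below called a difference from 1 h for CRK21 and CRK22, but not for CRK4 or CRK28. CRK21 and CRK22 are divergent neighbors in the large array. CRK22 (AT4G23300) held 23.2, 24.2, and 24.5 CPM in mock and 17.3, 14.5, and 16.1 CPM with flg22 at 1 h, but 14.4, 15.6, and 15.4 CPM in mock and 63.4, 37.9, and 70.8 CPM with flg22 at 9 h (1.89 ± 0.21, adjusted *P* = 4.21e-06). CRK21 (AT4G23290) held 18.1, 17.6, and 27.7 CPM against 20.9, 13.4, and 19.9 CPM at 1 h, and 11.6, 8.65, and 9.04 CPM against 42.0, 20.3, and 48.3 CPM at 9 h (1.84 ± 0.25). Both remained called at 24 h (1.09 ± 0.20 and 1.03 ± 0.25), but CRK21 lost that call without replicate 1 or 2 and CRK22 without replicate 1. CRK4, whose forced expression also causes cell death, rose at 9 h (1.5 ± 0.36) and 24 h (2.24 ± 0.39), from 0.502 to 2.39 CPM in mock to 4.01 to 9.30 CPM with flg22 at 24 h. CRK28 rose at 9 h (1.29 ± 0.19) and 24 h (1.07 ± 0.19). Without replicate 3, CRK28 was called at 1 h as well. Without replicate 1 neither CRK4 nor CRK28 was called at 9 or 24 h, and CRK4 was not called at 9 h without replicate 2 either.

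CRK30 remained lower at 9 h, with 22.0, 28.1, and 21.3 CPM in mock and 7.22, 3.80, and 6.84 CPM with flg22 (−2.0 ± 0.24). At 24 h its log2 fold change was −0.53 ± 0.23 and the groups overlapped. CRK42, on chromosome 5, fell at 9 h from 5.65, 6.89, and 6.95 CPM to 1.98, 2.64, and 2.74 CPM (−1.41 ± 0.27, adjusted *P* = 8.69e-04). That call was lost without replicate 3.

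Whether the effect differed between time points was tested as an interaction. Between 9 and 1 h the flg22 effect of 15 members differed, 13 of them being lower at 9 h and 2 higher (4.13% and 1.16% of all genes, 5.29% together). The 2 with a higher effect were CRK22 (a difference of 2.48 ± 0.29) and CRK21 (2.07 ± 0.35), the latter lost without replicate 2 or 3. The largest decreases were those of CRK39 (−4.91 ± 0.62), CRK41 (−4.55 ± 0.31), and CRK14 (−4.46 ± 0.34). Between 24 and 1 h, 11 members differed, 10 lower and CRK22 higher (1.69 ± 0.29), against 2.79% and 0.65% of all genes (3.44% together). CRK22 lost this call without replicate 1 or 2. Without replicate 1 this count was 5, and without replicate 3 it was 7, with CRK29, CRK31, CRK17, and CRK19 lost in both.

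Levels in mock seedlings also moved with time. From 1 to 9 h in mock, 9 members rose and 2 fell (CRK21 and CRK42), against 5.08% and 2.98% of all genes (8.07% together). In the same contrast 4 of the 6 shoot markers fell (median −2.95 over the 6, LHCB2.1 −6.73) and 1 of the 8 root markers rose, and from 1 to 24 h 3 shoot markers fell and 1 root marker rose. Their part in the mock levels of the CRKs was not tested. Those that rose were CRK36 (2.40 ± 0.39), CRK14 (2.03 ± 0.28), CRK41 (1.92 ± 0.22), CRK18, CRK9, CRK19, CRK45, CRK10, and CRK11 (1.14 ± 0.16). From 1 to 24 h in mock, 10 members rose and none fell, against 5.84% and 3.38% of all genes (9.22% together), and the largest log2 change was that of CRK24 (3.57 ± 0.75), with 0.155, 0, and 0 CPM at 1 h and 0.325, 1.12, and 0.596 CPM at 24 h. CRK24 lost this call without replicate 2 or 3. Leaving out 1 replicate lowered the number called at 24 h to 5 (replicate 1 or 3) or 6 (replicate 2). At 9 h, leaving out replicate 1 gave 7 calls, with CRK9, CRK21, CRK36, and CRK42 lost. CRK21 also lost its call without replicate 2 or 3 and without the replicate block, and CRK42 without replicate 3. CRK45 lost it without replicate 2 or 3, and CRK36 without replicate 2.

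In the 5 other accessions the family was induced at 1 h as well. In Can-0, 25 of 37 tested members rose and 2 fell, against 11.3% and 5.15% of all genes (16.4% together). In Gy-0, 25 of 38 rose and 3 fell, against 10.5% and 4.32% (14.8%). In Kn-0, 22 of 36 rose and 2 fell, against 7.57% and 1.65% (9.21%). In Kon, 22 of 34 rose and 3 fell, against 12.9% and 7.47% (20.4%). In No-0, 24 of 32 rose and 4 fell, against 13.6% and 7.11% (20.7%). The median log2 fold change of the tested members lay between 1.96 (Gy-0) and 2.54 (No-0), with that of all genes between −0.06 and −0.02. Without the replicate block, the number called in either direction fell from 28 to 13 in Gy-0 and from 27 to 18 in Can-0. The summed CPM of the family rose from a mean of 322 to 1878 in Can-0, 297 to 1337 in Gy-0, 316 to 1486 in Kn-0, 283 to 2281 in Kon, and 147 to 872 in No-0, and mock and flg22 libraries were separated in each accession.

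**Figure D3:**
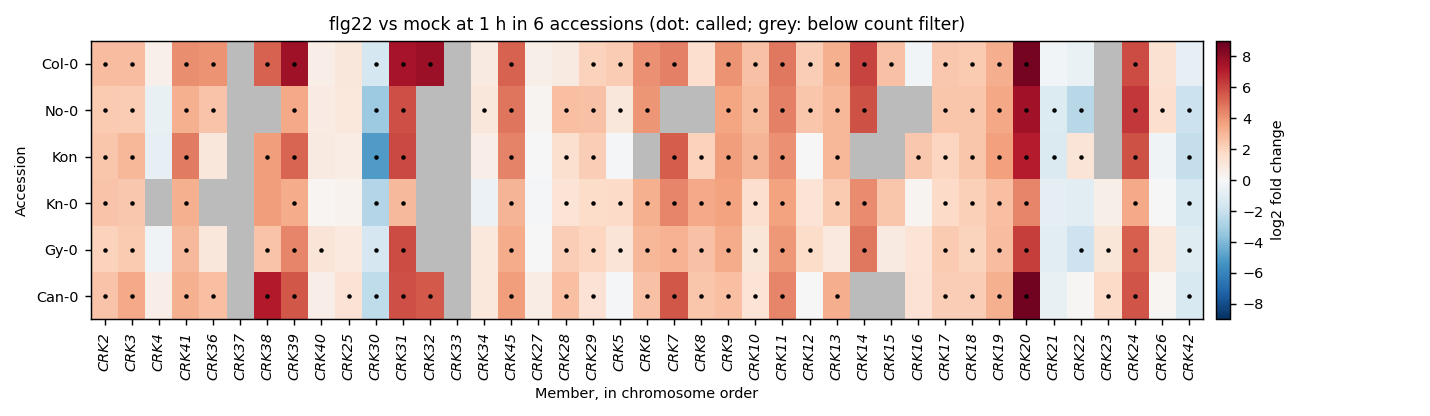
Log2 fold change (flg22 vs mock, color) at 1 h of the 41 members (columns, in chromosome order) in 6 accessions (rows), with a dot for each call and grey where the mean count was below 10. A rise is marked in all 6 rows for 15 members, and CRK30 is blue in every row.

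Of the 28 members tested in all 6 accessions, 15 rose in each. They were CRK2, CRK3, CRK9, CRK10, CRK11, CRK17, CRK18, CRK19, CRK20, CRK24, CRK29, CRK31, CRK39, CRK41, and CRK45. The share of all genes that rose in all 6 accessions was not counted. Several of these calls depend on the replicate block. Without it, CRK2, CRK3, CRK10, CRK18, CRK29, and CRK45 were not called in Gy-0, and CRK10, CRK18, and CRK29 not in Can-0. CRK10 in Gy-0 was also not called without replicate 2. CRK20 had the largest log2 fold change of the tested members in No-0 (7.57 ± 0.36), Kon (7.09 ± 0.33), Gy-0 (6.24 ± 0.24), and Can-0 (8.67 ± 0.36), and the value in Kn-0 was 4.39 ± 0.51. CRK11 spanned 3.61 (Kn-0) to 4.71 (Col-0), CRK2 2.07 to 2.75, and CRK18 2.02 to 2.53. CRK41 was the most abundant member in flg22 libraries of Kon (437, 608, and 660 CPM), Kn-0 (294, 418, and 386 CPM), and Can-0 (409, 566, and 525 CPM), whereas in Col-0 it held 33 to 49.1 CPM and in No-0 39.4 to 46.4 CPM. Col-0 was sequenced with another read length, so its levels are set beside the rest without a test.

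CRK30 fell in all 6 accessions, with log2 fold changes from −1.54 ± 0.17 in Gy-0 to −5.11 ± 0.37 in Kon. In Kon its mock libraries held 8.36, 9.15, and 9.08 CPM and its flg22 libraries 0.103, 0.234, and 0.455 CPM. CRK42 fell in the 5 accessions (−1.11 ± 0.18 in Gy-0 to −2.11 ± 0.24 in Kon). In Col-0 at 1 h it was lower with flg22 in all 3 pairs, with a log2 fold change of −0.70 that did not pass the test. CRK42 lost the call in Gy-0 without replicate 1 and in Can-0 without replicate 3. Without the replicate block, CRK30 was not called in Can-0, and CRK42 was not called in Can-0 or Gy-0. CRK21 fell in No-0 (−1.23 ± 0.22) and Kon (−1.27 ± 0.29), where the call was lost without replicate 1 or 2, and its values were −0.97 in Gy-0, −0.87 in Kn-0, and −0.67 in Can-0. In each of the 15 accession pairs CRK21 was lower with flg22.

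The flg22 effect was compared among the 5 accessions in 1 fit of 30 libraries. CRK22 was the only member called (spread of 3.68 between the highest and lowest log2 fold change, adjusted *P* = 0.00119), against 0.375% of all 19980 genes. In Kon it rose from 9.15, 8.14, and 4.33 CPM to 23.8, 16.1, and 9.23 CPM (1.16 ± 0.18). In No-0 it fell from 6.53, 6.96, and 6.48 CPM to 1.87, 1.19, and 0.553 CPM (−2.51 ± 0.31), and in Gy-0 from 12.1, 10.9, and 10.2 CPM to 4.05, 2.24, and 3.01 CPM (−1.86 ± 0.19). In Kn-0 it went from 12.6, 20.6, and 13.6 CPM to 5.92, 7.39, and 9.75 CPM, which did not pass the test of that accession (−1.02 ± 0.25), and in Can-0 the groups overlapped (0.07 ± 0.12). All 3 pairs were higher with flg22 in Kon and all 3 lower in No-0 and in Gy-0. In Kon, however, the lowest flg22 library (9.23 CPM) lay barely above the highest mock library (9.15 CPM). The rise of CRK22 in Kon was not called without the replicate block. With 2 replicates CRK22 was no longer called, with adjusted *P*-values of 0.064, 0.698, and 0.011 without replicates 1, 2, and 3, where at most 12 of all genes were called. CRK13, which shares 228 windows with CRK22, rose in Kon (2.99 ± 0.16) and No-0 (2.97 ± 0.23), and in Gy-0 its log2 fold change was 0.88 ± 0.22. The windows are 100 bases of the reference genome, whereas by the paper's methods the accessions were sequenced with longer reads. The part of reads shared between these genes in the result was not tested.

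With the replicate number as a block in the same fit, 1.79% of all genes and 8 members were called (CRK10, CRK14, CRK20, CRK22, CRK23, CRK28, CRK30, and CRK31), and DESeq2 called 1.79% of all genes and 9 members, these 8 and CRK5. Without the block the adjusted *P*-values of CRK14 (0.011), CRK10 (0.014), CRK31 (0.017), and CRK20 (0.020) missed the threshold. CRK10 rose strongly in No-0 (to 106, 103, and 84.0 CPM from 15.6, 10.9, and 13.9 CPM) and Kon (to 204, 160, and 191 CPM from 21.7, 15.1, and 34.8 CPM), and less in Kn-0 (1.48 ± 0.21), Gy-0 (1.07 ± 0.12), and Can-0 (1.26 ± 0.14). CRK31 and CRK20 had their smallest effects in Kn-0 (2.90 ± 0.29 and 4.39 ± 0.51), where CRK31 was higher in mock than elsewhere, at 1.41, 1.68, and 1.82 CPM.

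CRK14 was below the count filter in Kon and Can-0. There its flg22 libraries held 0.566, 0.234, and 0.26 CPM (Kon) and 0.192, 0.201, and 0.543 CPM (Can-0), against 32.9, 28.9, and 26.3 CPM in No-0, 58.5, 88.1, and 48.0 CPM in Kn-0, and 44.5, 55.5, and 27.8 CPM in Gy-0. CRK5 and CRK12, picked out after their values were seen, had no detectable rise in the same accessions. CRK5 had log2 fold changes of −0.11 ± 0.34 in Kon and −0.16 ± 0.20 in Can-0, and rose in No-0, Kn-0, Gy-0, and Col-0 (1.03 to 2.29). CRK12 had −0.07 ± 0.40 in Kon and −0.06 ± 0.29 in Can-0, and rose in No-0 (2.48 ± 0.23), Gy-0 (1.66 ± 0.20), and Col-0. The tests of a difference among accessions gave adjusted *P*-values of 0.131 for CRK5 and 0.239 for CRK12.

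**Figure D4:**
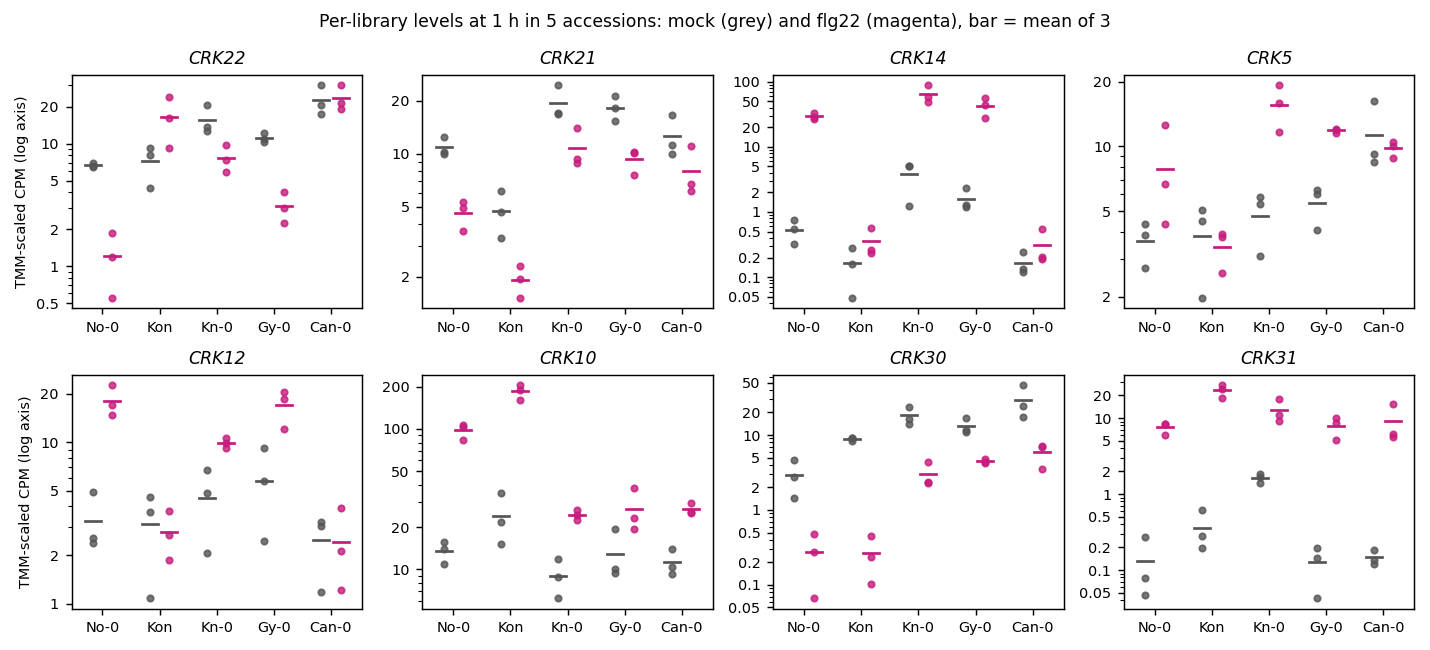
TMM-scaled CPM (log axis) in each library at 1 h in the 5 accessions, for mock (grey) and flg22 (magenta), with bars at the mean of 3 libraries. CRK22 was chosen by the test among accessions and the other 7 genes after their values were seen. In Kon the flg22 libraries of CRK22 (9.23 to 23.8 CPM) begin barely above the mock libraries (4.33 to 9.15 CPM). CRK14 stays below 1 CPM in Kon and Can-0.

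Some members were called in only part of the panel. CRK7 passed the filter in 5 accessions and rose in each, and so did CRK6, with No-0 lacking for CRK7 and Kon for CRK6. CRK13 rose in all but Gy-0. CRK28 rose in the 5 accessions (1.21 to 2.72, with the call in Kn-0 lost without replicate 1 or 2) and in Col-0 at 1 h had a value of 0.82. CRK8 rose in Can-0, Kon, Gy-0, and Kn-0, and CRK38 in Col-0, Kon, Gy-0, and Can-0. In Can-0 CRK38 had 1 count in mock, a ratio of 201 (95% counting interval 35.6 to 7969). CRK36 rose in Col-0, No-0, and Can-0. CRK32 had a rise called in Col-0 and Can-0 and no mock count in No-0, Kn-0, and Gy-0, where it was at least 4.81-fold, 6.39-fold, and 15.2-fold higher with flg22, against a floor of 3 counts over the mock group. CRK23 rose in Gy-0 and Can-0, CRK15 in Col-0, CRK16 in Kon, CRK25 in Can-0, CRK26 and CRK34 in No-0, and CRK40 in Gy-0. Of these calls, CRK8 in Kon was lost without replicate 1 or 2, CRK16 without replicate 2, CRK25 without replicate 3, CRK23 in Gy-0 without replicate 1 or 2, and CRK23 in Can-0 without replicate 2 or 3. CRK26 in No-0 was lost without replicate 1 or 2 and CRK34 without replicate 2 or 3. CRK27 was tested in all 6 accessions and never called, and CRK33 and CRK37 never passed the filter.

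Levels in mock differed among the 5 accessions for 16 members, against 12.2% of all genes. They were CRK4, CRK5, CRK10, CRK14, CRK16, CRK20, CRK21, CRK22, CRK23, CRK28, CRK29, CRK30, CRK31, CRK36, CRK41, and CRK45. Without replicate 2, only CRK4, CRK14, CRK31, and CRK41 were called. CRK41 had the lowest adjusted *P* (7.76e-09), with mock libraries at 4.26 to 5.70 CPM in No-0 and 41.9 to 59.9 CPM in Can-0. CRK4 was all but absent in Kn-0, with 0, 0.084, and 0 CPM in mock and 0 CPM in all 3 flg22 libraries, and reached 7.83, 4.57, and 3.69 CPM in mock Gy-0. CRK36 ranged from 0.0911 to 0.515 CPM in mock Kn-0 and from 2.84 to 8.59 CPM in mock Can-0. All accessions were counted on models of the Col-0 gene set, and how far sequence differences between an accession and that set moved these levels was not tested.

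Listed orthologs are described without a test, because the study drew the lists from flg22 responses in these libraries. Of the 17 members, 9 belong to the list of genes that responded in all 4 species, so their rise is what the list selected. At 1 h the log2 fold changes of these orthologs, CRK21 apart, ranged from 1.32 to 6.14 in *C. rubella*, from 1.55 to 7.0 in *C. hirsuta*, and from 1.52 to 4.72 in *E. salsugineum*. CRK11 was the highest of the 8 in *C. rubella* (6.14 ± 0.45), CRK39 in *C. hirsuta* (7.0 ± 0.80), and CRK31 in *E. salsugineum* (4.72 ± 0.64). At 9 and 24 h these orthologs were mostly closer to 0. In *C. rubella*, for example, CRK10 had 3.71 ± 0.23 at 1 h, −0.71 ± 0.21 at 9 h, and 1.02 ± 0.22 at 24 h.

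CRK21 had both signs. In *C. rubella* its ortholog went from 0.438, 1.38, and 0.694 CPM to 30.3, 42.8, and 23.8 CPM at 1 h (5.27 ± 0.40), and in *E. salsugineum* from 4.60, 7.98, and 3.16 CPM to 83.5, 110, and 77.0 CPM (4.16 ± 0.28). In *C. hirsuta* it went from 4.71, 3.02, and 3.51 CPM to 1.82, 1.80, and 1.13 CPM (−1.26 ± 0.33), and in Col-0 it did not pass the test. CRK34 went in *C. rubella* from 0, 0.311, and 0 CPM to 15.1, 26.5, and 10.3 CPM (7.30 ± 0.69), with 0.70 ± 0.45 in *C. hirsuta*, 0.28 ± 0.16 in *E. salsugineum*, and 0.80 ± 0.27 in Col-0. CRK14 had 6.09 in Col-0 and 5.08 ± 0.54 in *C. rubella*. In *C. hirsuta* its ortholog held 46.9, 47.3, and 57.3 CPM in mock and 41.6, 36.9, and 40.7 CPM with flg22 (−0.32 ± 0.24). In *E. salsugineum* it held 121, 93.8, and 108 CPM in mock and 107, 73.3, and 84.7 CPM with flg22 (−0.29 ± 0.12). CRK5 had 3.29 ± 0.32 in *C. rubella* and 2.32 ± 0.24 in *E. salsugineum*. In *C. hirsuta* it was at 27.0, 30.6, and 27.5 CPM in mock and 32.8, 29.4, and 33.6 CPM with flg22 (0.17 ± 0.19).

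**Figure D5:**
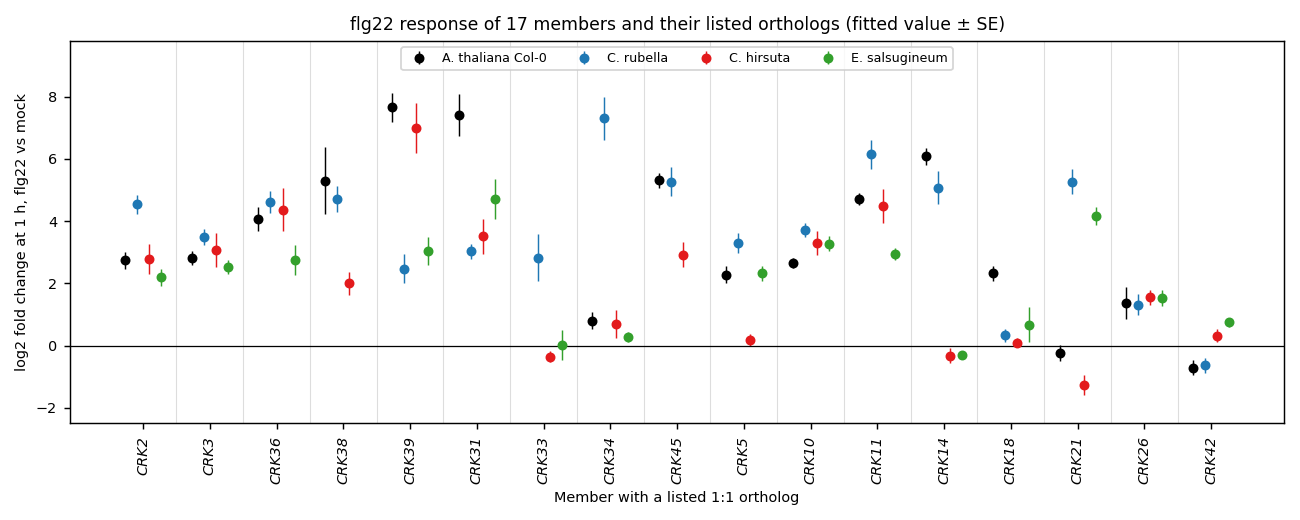
Log2 fold change (flg22 vs mock) at 1 h of the 17 members with listed 1:1 orthologs, fitted value with its standard error, in Col-0 (black), *C. rubella* (blue), *C. hirsuta* (red), and *E. salsugineum* (green). A missing point means a mean count below 10. CRK21 lies at 5.27 and 4.16 in *C. rubella* and *E. salsugineum* and at −0.23 and −1.26 in Col-0 and *C. hirsuta*.

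Of the remaining listed orthologs, CRK45 had 5.27 ± 0.47 in *C. rubella* and 2.92 ± 0.41 in *C. hirsuta*. In *E. salsugineum* it was below the filter, with 3 counts in mock and a ratio of 41.8 (95% counting interval 13.9 to 207). CRK38 had 4.71 ± 0.41 and 2.00 ± 0.36 in *C. rubella* and *C. hirsuta* and was below the filter in *E. salsugineum*. CRK33, which never passed the filter in *A. thaliana*, had 2.83 ± 0.76 in *C. rubella* and −0.35 ± 0.18 in *C. hirsuta*. CRK18, called in all 6 *A. thaliana* accessions, had 0.68 ± 0.56 in *E. salsugineum*, 0.33 ± 0.21 in *C. rubella*, and 0.09 ± 0.14 in *C. hirsuta*. CRK42 had 0.75 ± 0.14, −0.63 ± 0.24, and 0.32 ± 0.22 in the same order. Levels are not compared between species, because the tables were normalized separately and the gene models differ in length.

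Libraries held 21813097 to 35607867 gene counts in Col-0 and 14039779 to 28168094 in the 5 accessions. In Col-0 libraries, 8.81% to 42.8% of each table's total were reads that aligned to more than 1 place and went to no gene, against 4.53% to 6.81% in the accessions.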

How the data were processed

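The 9 tables deposited by the authors hold raw counts of reads by gene, made with TopHat2 2.1.1 and HTSeq 0.6.0 (submitters' processing notes) on TAIR10 for Col-0 and on the other species' own assemblies. Whether the accession counts rest on TAIR10 or on the SNP-corrected genomes the paper also describes is not given in the sources used here. HTSeq's summary lines, 7.11% to 50.0% of a library, stayed out of library sizes and tests. All 41 identifiers matched RefSeq (TAIR10.1), which served for names, positions, and sequences.

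Genes averaging 10 or more counts were scaled by TMM and tested in edgeR 4.0.16 (R 4.3.3) by its quasi-likelihood F-test, per species (18 libraries) or accession (6), with the replicate number as block and Benjamini-Hochberg adjustment over all genes tested. A standard error is the fold change's absolute log2 value over the root of F. Differences among the 5 accessions used 1 fit without block. Per the paper's methods, mock and flg22 of an experiment ran side by side, and of 51 pairs 45 had a correlation of deviations above 0.1 (median 0.36). Alternatives were RLE scaling, DESeq2 1.42.0, limma 3.58.1 (voom), no count filter, the block, and leaving out each replicate. The procedure was tested on simulated data. No 2 libraries agreed within sampling noise. The members and lists were chosen with earlier results of these data known. The rule for named genes was every called member, with library values for the 12 called members of largest change in Col-0 at 1 h, for members whose effect differed among accessions, and for members that fell. Other library values (CRK4, CRK10, CRK13, the accession contrasts, and the orthologs) were picked after seeing them.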

Additional observations from a re-analysis of the deposited data

Results flagged for a closer look

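The flg22 effect on CRK22 differed among the 5 accessions at 1 h (edgeR adjusted *P* = 0.00119), with a rise in Kon and a fall in No-0 and Gy-0. The call was lost without replicate 1, 2, or 3 (adjusted *P* = 0.064, 0.698, and 0.011), and 228 of its windows are shared with CRK13. In Col-0, the effect differed from that at 1 h for 15 members at 9 h and for 11 members at 24 h by the interaction test, against 5.29% and 3.44% of all genes. The latter count was 5 without replicate 1.

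Among the listed orthologs, some had log2 fold changes of opposite sign in 2 or more species, in all 3 pairs of each. These differences between species were not tested, and how many of all genes meet this rule was not counted. Several of the values are small beside their standard errors. In *C. hirsuta* these were CRK14 (−0.32 ± 0.24) and CRK33 (−0.35 ± 0.18) at 1 h and CRK5 (−0.29 ± 0.19) at 9 h. CRK21 had log2 fold changes of 5.27 in *C. rubella*, 4.16 in *E. salsugineum*, and −1.26 in *C. hirsuta* at 1 h, and of 3.28, 1.19, and −0.69 at 24 h, with 1.03 in Col-0. CRK14 had at 1 h 6.09 (Col-0) and 5.08 (*C. rubella*) against −0.32 (*C. hirsuta*) and −0.29 (*E. salsugineum*). In the same order its values were 1.64 and 1.35 against −1.51 and −0.40 at 9 h, and 2.97 and 1.87 against −0.39 and −0.29 at 24 h. CRK33 at 1 h had 2.83 (*C. rubella*) and −0.35 (*C. hirsuta*). CRK42 had 0.75 in *E. salsugineum* against −0.70 in Col-0 and −0.63 in *C. rubella* at 1 h. CRK10 had 0.72 in *C. hirsuta* against −0.31 in Col-0 and −0.71 in *C. rubella* at 9 h. CRK5 had 1.65 in Col-0 and 0.68 in *E. salsugineum* against −0.29 in *C. hirsuta* at 9 h.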

How the results depend on the processing

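Counts of called members under RLE scaling, limma-voom, and DESeq2 stayed within 1.5 times the reported count, except for the difference in flg22 effect among the 5 accessions. That count was 1, 9 with DESeq2, 2 without the count filter, and 8 with the replicate block. Without the replicate block, the count in Gy-0 was 13 in place of 28, and no other count of the paired fits moved by over 1.5 times. No call reversed under any alternative.

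With 1 replicate left out, the numbers called ranged from 24 to 26 (Col-0 1 h), 15 to 23 (9 h), 15 to 23 (24 h), 11 to 14 (effect at 9 against 1 h), 5 to 10 (effect at 24 against 1 h), 7 to 10 (mock at 9 against 1 h), 5 to 6 (mock at 24 against 1 h), 25 to 29 (Can-0), 26 to 31 (Gy-0), 25 to 27 (Kn-0), 22 to 27 (Kon), 26 to 27 (No-0), 0 to 0 (effect among accessions), and 4 to 16 (mock level among accessions). The replicate block among accessions assumes that equal numbers mark a shared experiment across accessions, which the labels do not state. Read depth limits members near absence in mock, such as CRK32 and CRK38, whose ratios have wide counting intervals.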
